A study of Mus musculus with 10 samples.

Results

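The proteasome genes of the mouse were examined in heart muscle cells of mice labelled as knockouts of the chromatin protein CTCF and of mice under pressure overload of the heart. The set holds the protein-coding genes with symbols that begin with Psma, Psmb, Psmc, Psmd, Psme or Psmg, without the interferon-inducible catalytic subunits Psmb8, Psmb9 and Psmb10 and without the unrelated Psmc3ip. This rule found 45 genes among the 45882 gene identifiers in the files. A gene was tested where its level averaged at least 1 FPKM over the libraries (fragments per kilobase of transcript, scaled to the size of the library and here rescaled between libraries). 42 of the 45 genes passed, among 11358 genes tested in all.

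The proteasome is the large protease that unfolds and degrades proteins tagged with ubiquitin. Its 20S core is a barrel of stacked rings, in which the outer alpha rings guard the entrance and the beta rings carry the cutting sites. The 19S regulatory particle caps the barrel: its ATPases unfold the substrate, while its non-ATPase subunits recognise ubiquitin, remove it and hold the lid together. Other caps, the activators, open the barrel without ATP, and separate chaperones help to assemble the 20S and 19S particles. In heart muscle, which turns over its contractile proteins without much cell division, this protease is a main route of protein removal.

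RNA came from isolated left ventricular cardiac myocytes of adult C57BL/6 mice. There were 3 control mice, 4 mice labelled as CTCF knockout and 3 mice with TAC (transverse aortic constriction), an operation that narrows the aorta and so makes the left ventricle pump against a high pressure. CTCF is the DNA-binding protein that anchors many chromatin loops. Each library carried a mouse number of its own. The genotype of the TAC mice, the ages, the knockout allele and the Cre driver are not given in the sources used here. Ctcf itself, which checks the labels, had control levels of 8.81, 8.34 and 6.80 FPKM. The knockout levels were 2.90, 4.01, 2.60 and 4.42 FPKM, all below the controls, and Ctcf fell by 1.02 on the log2 scale (limma, adjusted p = 0.00136). The TAC libraries held 7.32, 5.70 and 5.22 FPKM of Ctcf. The summed level of 7 cardiac myocyte markers was 22070 to 31810 FPKM in every library, against at most 1676 FPKM for 5 erythroid genes, 219.9 FPKM for 8 fibroblast markers, 145.3 FPKM for 7 endothelial markers, 113.7 FPKM for 8 macrophage and leukocyte markers and 103.2 FPKM for 6 smooth muscle and pericyte markers. Summed fibroblast markers were 71.1 to 133.4 FPKM in controls, 143.8 to 219.9 FPKM in knockouts and 177.4 to 204.3 FPKM after TAC, and 4 of 7 tested markers rose in each comparison with the controls. Summed endothelial markers were 65.2 to 88.2 FPKM in controls, 82.0 to 140.3 FPKM in knockouts and 94.5 to 145.3 FPKM after TAC, with 2 of 7 called higher in knockouts and none after TAC. Summed smooth muscle and pericyte markers were 73.9 to 103.2 FPKM in controls, 49.4 to 64.0 FPKM in knockouts and 61.3 to 65.8 FPKM after TAC, with Acta2 lower and Cspg4 higher among 6 in both comparisons with the controls. In the knockouts, 4 of 7 cardiac myocyte markers fell, and after TAC 2 of 7 did. The part of these cell types in the results on the proteasome was not tested. In bulk RNA a smaller number of cells of one type cannot be told apart from less RNA per cell.

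The start regions of 4 of the 5 genes called in any comparison and of the catalytic subunit Psmb5 are printed first (for the fifth, Psmd3, no start region is used here), because several proteasome genes are known targets of the transcription factor NRF1 (Nfe2l1), which binds antioxidant response elements in their promoters. Each line gives 150 bases before and 10 bases from the RefSeq start (GRCm38.p6), read 5′ to 3′ on the strand of the gene, and capitals mark a match to the core letters of that element, TGACNNNGC, searched on both strands. Psmd9 was read at chr5:123228040-123228199 on the plus strand, Psmb5 at chr14:54617986-54618145 on the minus strand, Psme4 at chr11:30771625-30771784 on the plus strand, Psmd8 at chr7:29180664-29180823 on the minus strand and Psmd11 at chr11:80428465-80428624 on the plus strand.
Psmd9: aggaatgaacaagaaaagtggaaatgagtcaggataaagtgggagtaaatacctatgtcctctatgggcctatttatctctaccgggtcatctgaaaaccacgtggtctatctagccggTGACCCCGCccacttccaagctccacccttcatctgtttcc
Psmb5: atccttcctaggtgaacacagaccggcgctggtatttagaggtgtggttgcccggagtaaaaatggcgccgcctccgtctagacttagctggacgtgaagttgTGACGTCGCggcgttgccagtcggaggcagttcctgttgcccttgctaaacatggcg
Psme4: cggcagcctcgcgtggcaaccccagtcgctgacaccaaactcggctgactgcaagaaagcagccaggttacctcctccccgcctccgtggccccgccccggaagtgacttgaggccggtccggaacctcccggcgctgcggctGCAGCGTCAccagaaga
Psmd8: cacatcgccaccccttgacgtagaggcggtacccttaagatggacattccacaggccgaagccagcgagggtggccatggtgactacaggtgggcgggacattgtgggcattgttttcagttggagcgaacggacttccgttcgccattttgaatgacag
Psmd11: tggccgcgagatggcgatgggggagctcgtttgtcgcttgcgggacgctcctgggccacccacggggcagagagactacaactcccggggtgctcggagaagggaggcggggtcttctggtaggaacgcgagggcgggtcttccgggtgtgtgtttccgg
The match lay 31 to 23 bases before the start of Psmd9 (-31 to -23) and 47 to 39 bases before that of Psmb5 (-47 to -39). In Psme4 it ran across the start, from -7 to 2, on the opposite strand. The letters did not occur in the lines of Psmd8 and Psmd11. Over windows from 250 bases before to 50 bases after the start, 6 of the 37 proteasome genes with a RefSeq window held the letters (Psmb5, Psmb6, Psmc6, Psmd12, Psmd9 and Psme4), which is 16.2%. Among all 27025 genes with a window the share was 14.0%, so the letters were about as frequent at proteasome genes as elsewhere. A match describes letters and not binding.

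Most proteasome genes were abundant in these cells. The median tested member lay at the percentile 91.1 of mean FPKM among tested protein-coding genes. Within the 20S core, the alpha ring genes ran from Psma5 at 30.0 FPKM to Psma7 at 67.7 FPKM, a 2.25-fold range, and the beta ring genes from the chymotrypsin-like catalytic subunit Psmb5 at 46.9 FPKM to the caspase-like subunit Psmb6 at 96.3 FPKM, a 2.06-fold range. The 6 ATPases of the 19S particle ran from Psmc2 at 28.3 FPKM to Psmc3 at 90.4 FPKM. Its 11 non-ATPase subunits ran from Psmd7, part of the lid dimer that holds the deubiquitinase, at 20.3 FPKM to Psmd2, the large base scaffold, at 64.5 FPKM. The subunits are built into the particle in equal numbers. Their transcripts differed about 2- to 3-fold within each ring, among the ATPases and among the non-ATPase subunits, and more over the whole 19S particle.

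The assembly chaperones were far less abundant. The 19S chaperones Psmd10, Psmd5 and Psmd9 averaged 3.82, 4.89 and 5.50 FPKM, and the 20S chaperones ran from Psmg3 at 2.22 FPKM to Psmg2 at 13.7 FPKM. Among the activators, Psme4 (PA200), a large single-chain cap, averaged 77.6 FPKM. The alpha and beta subunits of the PA28 cap, Psme1 and Psme2, averaged 60.5 and 24.3 FPKM, and the nuclear PA28 gamma, Psme3, averaged 16.7 FPKM. The 3 genes below the test's level were the testis alpha subunit Psma8 (0.178 to 0.674 FPKM), the thymus beta subunit Psmb11 (at most 0.0231 FPKM) and Psme2b (0.240 to 0.621 FPKM), a close copy of Psme2.

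The 31 tested subunits of the 20S core and the 19S particle moved together between libraries of the same group. In control replicate 1, 30 of the 31 lay below the mean of their own group, and in control replicates 2 and 3 the count was 1 and 7. In TAC replicate 1 all 31 lay below their group mean, against 3 in TAC replicate 2 and 6 in TAC replicate 3. In the knockouts the counts were 4, 22, 3 and 28 for replicates 1 to 4. Over all 11358 genes, 47.8% to 52.0% lay below the group mean in each library. The rescaling by the median gene holds this share near such values in advance. It therefore does not show how often other sets of genes move together, which was not tested.

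**Figure D1:**
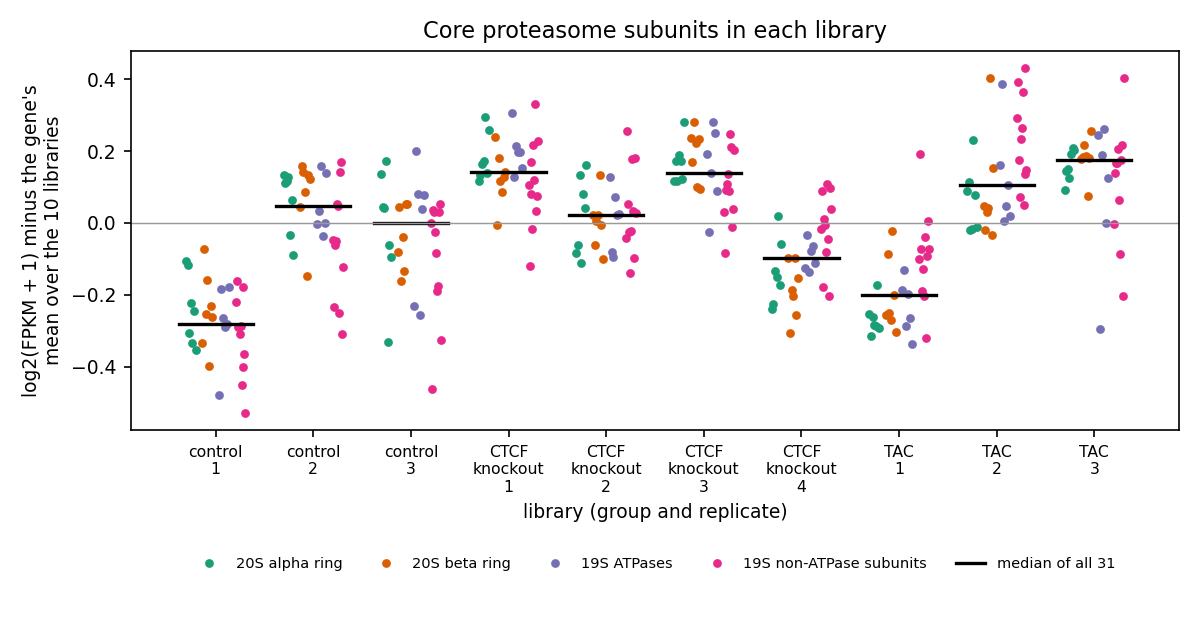
Levels of the 31 core subunits in the 10 libraries as log2(FPKM + 1) minus each gene's mean over all libraries, coloured by ring or particle, with a black line at the median of the 31. The points of control replicate 1 and TAC replicate 1 lie below the line at 0 almost without exception, and the medians of the 3 groups overlap.

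Summed over these 31 genes, the controls held 1345, 1685 and 1591 FPKM, the knockouts 1824, 1642, 1822 and 1498 FPKM and the TAC libraries 1407, 1762 and 1820 FPKM. The group means were 1540 ± 176 (SD, n = 3), 1697 ± 158 (SD, n = 4) and 1663 ± 224 (SD, n = 3), and the groups overlapped. The 19S sum divided by the 20S sum was 0.775, 0.776 and 0.784 in the controls. It was 0.824, 0.819, 0.785 and 0.878 in the knockouts and 0.854, 0.874 and 0.794 after TAC. All 7 values lay above the 3 control values, by a small margin in knockout replicate 3 and TAC replicate 3, and this ratio is given as a description with no test.

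In the CTCF knockouts a few 19S genes were higher and most proteasome genes did not pass the test. Of the 42 tested genes, 3 rose in knockouts against controls, namely the 19S chaperone Psmd9 and the lid subunits Psmd8 and Psmd3, and none fell (limma, adjusted p under 0.05). An unadjusted p under 0.05 was reached by 12. The called share of 7.14% stands beside 20.8% of all genes tested in this comparison, 10.6% higher and 10.2% lower, and is below it. The median log2 fold change of the 42 was 0.11 against -0.0078 over all genes, with 30 values above and 12 below 0. With libraries rescaled on the 31 core subunits themselves, an alternative added after the data had been seen, the median was -0.013. Because these 31 are among the 42, this rescaling by itself moves the median toward 0, and the value is no test of the shift. Each of the 42 intervals at 95% lay within a log2 change of 1 in either direction, and 28 lay within 0.5.

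**Figure D2:**
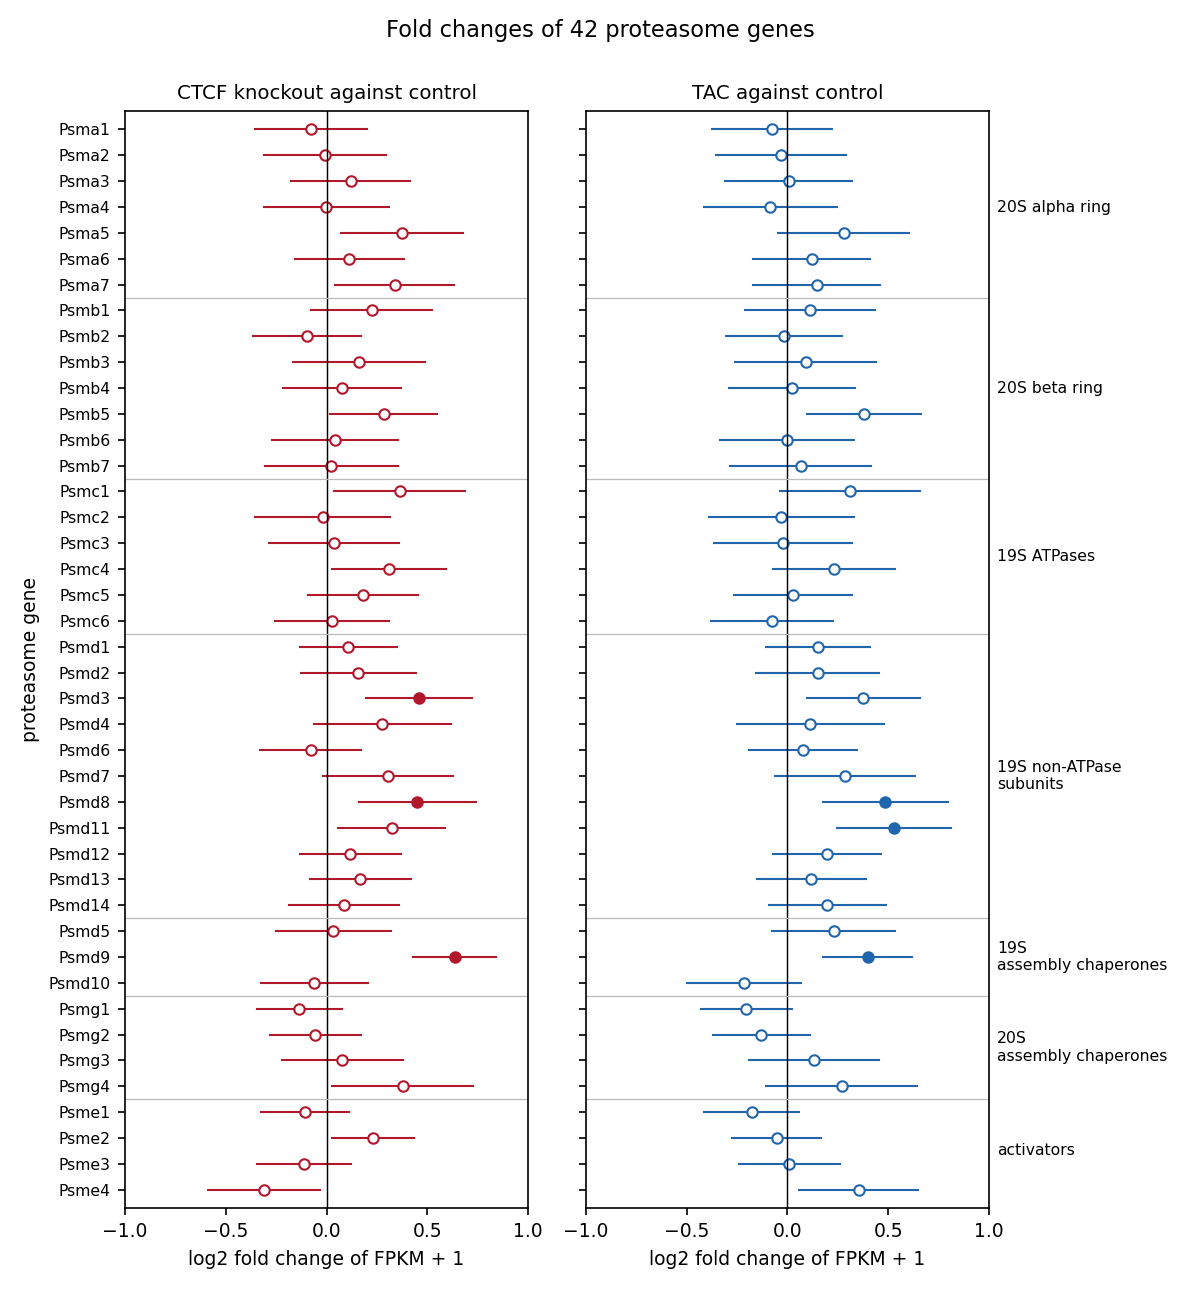
Log2 fold changes of the 42 tested genes in knockouts (left) and TAC (right) against the same 3 controls, on the log2(FPKM + 1) scale, with 95% intervals; filled points are called. Filled points are Psmd3, Psmd8 and Psmd9 on the left and Psmd8, Psmd9 and Psmd11 on the right.

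Psmd9, which holds the ATPase Psmc3 and its neighbour during assembly of the 19S base, showed the clearest difference. Psmd9 (ENSMUSG00000029440) lies at chr5:123169413-123250131 on the plus strand (GRCm38). Its level was 3.88, 3.57 and 4.37 FPKM in the controls and 6.44, 6.91, 6.93 and 6.42 FPKM in the knockouts. All 4 knockout values lay well above the 3 control values. The mean was 1.69-fold higher, and the log2 fold change was 0.64 with a standard error of 0.094 (95% interval 0.43 to 0.84, limma, adjusted p = 0.00087). Psmd9 was called under each of the 19 alternative settings tried, with adjusted p between 0.000447 and 0.0211. All of them use the same sum of transcript FPKM. Much of the rise in this sum lay in the short transcript Psmd9-204, with means of 1.15 FPKM in controls and 3.08 FPKM in knockouts. The longer Psmd9-201 had means of 2.49 and 2.62 FPKM. The summed level thus depends on how reads were divided between transcripts of unlike length, and the settings did not vary this.

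Psmd3 (ENSMUSG00000017221), a lid subunit at chr11:98682554-98695979 on the plus strand, stood at 23.7, 27.4 and 28.6 FPKM in controls and 35.7, 37.2, 39.1 and 35.4 FPKM in knockouts. The groups did not overlap, and Psmd3 rose by 0.46 ± 0.12 (SE) on the log2 scale (limma, adjusted p = 0.0192). Psmd8 (ENSMUSG00000030591), the lid subunit at chr7:29174188-29180701 on the minus strand, stood at 36.0, 48.1 and 41.7 FPKM in controls and 61.6, 53.5, 60.5 and 53.9 FPKM in knockouts. It also showed no overlap and rose by 0.45 (limma, adjusted p = 0.0321). Without control replicate 1, where the core subunits lay low together, adjusted p was 0.0695 for Psmd3 and 0.113 for Psmd8, and without knockout replicate 3 it was 0.0502 and 0.0760. Rescaled on the 31 core subunits, Psmd3 also lost its call (log2 fold change 0.33, adjusted p = 0.086). Psmd8 lost its call in 7 of 19 settings, among them without control replicate 3 (0.0750), knockout replicate 1 (0.0771) or knockout replicate 2 (0.0513) and with no filter on the mean (0.0710).

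In 8 genes the 4 knockout values lay above all control values, and in none did they lie below. Over all genes 14.8% were higher without overlap and 16.0% lower, 30.8% in all. The 8 were Psmd3, Psmd8, Psmd9, Psma5, Psma7, Psmb5, Psmd11 and the PA28 beta subunit Psme2. Apart from the first 3 these did not pass the test: Psma5 had a log2 fold change of 0.37, Psma7 of 0.34, Psmd11 of 0.32 and Psme2 of 0.23 (limma, adjusted p = 0.0793, 0.0989, 0.081 and 0.105).

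By role, none of the 7 alpha ring, 7 beta ring or 6 ATPase genes was called. Of the 11 non-ATPase subunits 2 were called, both higher, a share of 18.2%. Over all genes 20.8% were called, 10.6% higher and 10.2% lower. No catalytic subunit was called. Psmb5, the chymotrypsin-like site, held 34.9, 41.8 and 42.2 FPKM in controls and 49.3, 51.0, 49.8 and 43.3 FPKM in knockouts, with a log2 fold change of 0.28 (limma, adjusted p = 0.124). The caspase-like Psmb6 held 81.3, 105 and 99.2 FPKM in controls and 105, 95.3, 113 and 80.0 FPKM in knockouts, and the trypsin-like Psmb7 held 73.3, 95.8 and 91.2 FPKM and 97.2, 82.0, 94.0 and 79.0 FPKM. Both overlapped with the controls, with log2 fold changes of 0.04 (95% interval -0.27 to 0.35) and 0.02 (-0.30 to 0.35). Part of Psmb5 (22.2% of its 100-base stretches) and of Psma5 (23.7%) is shared with other annotated genes, and 18.4% of Psme2 with Psme2b, which makes their levels less certain.

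Among the other chaperones, Psmd5 and Psmd10 had log2 fold changes of 0.03 and -0.06. The 20S chaperones Psmg1, Psmg2, Psmg3 and Psmg4 had -0.13, -0.06, 0.08 and 0.38, and the last was not called (limma, adjusted p = 0.121). The activators Psme1 and Psme3 had -0.11 and -0.11. Psme4 had -0.31 (limma, adjusted p = 0.106).

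Pressure overload gave a count of the same size. After TAC 3 of the 42 genes rose against the controls, Psmd11, Psmd8 and Psmd9, and none fell; 6 reached an unadjusted p under 0.05. The called share was 7.14%, beside 15.5% of all genes tested, 8.08% higher and 7.37% lower. The median log2 fold change was 0.11 over the members and -0.0048 over all genes, with 29 values above and 13 below 0. Rescaled on the core subunits, which by itself moves this median toward 0, it was 0.0078. All 42 intervals at 95% lay within 1 and 29 within 0.5. The controls of this comparison are those of the knockout comparison, so the 2 results are not independent of each other.

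Psmd11 (ENSMUSG00000017428), a lid subunit at chr11:80428615-80473248 on the plus strand, stood at 23.1, 21.9 and 18.6 FPKM in controls and 29.8, 34.4 and 28.7 FPKM after TAC. The groups were apart, with a 1.46-fold higher mean and a log2 fold change of 0.53 (SE 0.13, limma, adjusted p = 0.0176). Psmd8 stood at 49.8, 58.2 and 69.7 FPKM after TAC, above all controls, and rose by 0.49 (limma, adjusted p = 0.0389). For Psmd9 the TAC values of 5.25, 6.01 and 5.26 FPKM lay between the controls and the knockouts without touching either, and it rose by 0.40 (limma, adjusted p = 0.0207). Without TAC replicate 2 no member was called, with adjusted p of 0.0656 for Psmd11, 0.0852 for Psmd8 and 0.0703 for Psmd9. Psmd11 lost its call in 3 of 19 settings and Psmd9 in 5, among them Psmd11 without control replicate 3 (0.0630), Psmd9 without control replicate 2 (0.0711) or with only the groups compared (0.0767), and both when rescaled on the core subunits (0.169 and 0.195). Psmd8 lost its call in 12 of 19 settings, among them with sex as a covariate and without control replicate 1 (0.112) or 3 (0.0841). The call was also lost without TAC replicate 3 (0.132), and without knockout replicates 1, 2 or 3, which enter through the shared error (0.0504, 0.0528 and 0.0536).

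**Figure D3:**
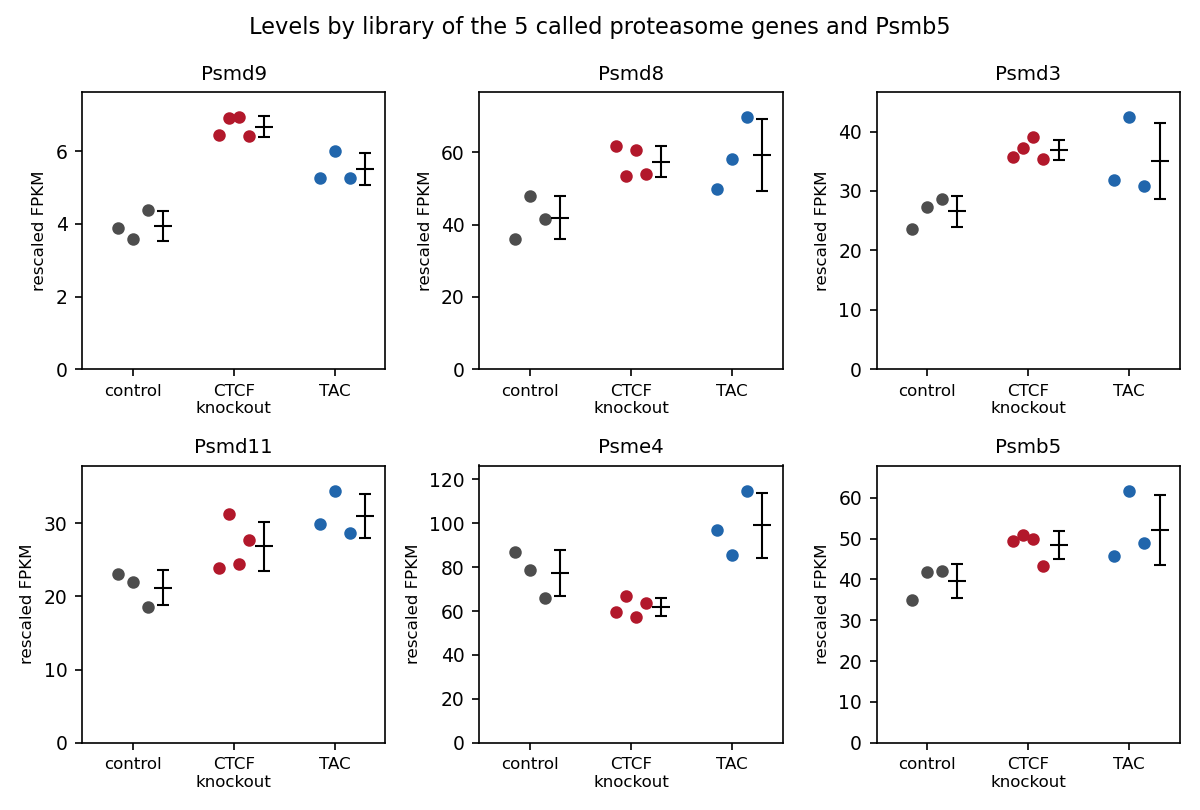
Rescaled FPKM in each library for the 5 genes called in any comparison and for the catalytic subunit Psmb5; bars give the group mean and SD. The summed level of Psmd9 separates the 3 groups, though neither of its main transcripts separates knockouts from TAC. Psme4 separates knockouts from TAC while its controls lie between and overlap both.

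In 5 genes the TAC values all lay above the controls (Psmb5, Psmd3, Psmd8, Psmd9 and Psmd11), and in 3 all lay below (Psmd10, Psme1 and Psmg1). The corresponding shares over all genes were 16.0% and 15.7%, 31.6% in all. Psmd3 at 31.8, 42.4 and 30.8 FPKM had a log2 fold change of 0.38, and Psmb5 at 45.6, 61.7 and 49.0 FPKM one of 0.38, neither called (limma, adjusted p = 0.0708 and 0.0712). Psmb6 and Psmb7 held 83.1, 93.4 and 109 FPKM and 71.1, 98.0 and 105 FPKM, within or around the control values, with log2 fold changes of -0.0022 and 0.06. The log2 fold changes of the 11 non-ATPase subunits after TAC ran from 0.08 to 0.53 with a median of 0.20, and those of the 7 alpha ring genes from -0.08 to 0.28 with a median of 0.01. No member of the alpha ring, beta ring or ATPases was called.

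The genes below the controls were small in effect. Psmd10, a chaperone of the ATPase Psmc4 also known as gankyrin, had a log2 fold change of -0.22, Psmg1 one of -0.20 and Psme1 one of -0.18 (limma, adjusted p = 0.29, 0.212 and 0.292). Psmd5 and Psmg4 had 0.23 and 0.27, Psmg2 and Psmg3 -0.13 and 0.13, Psme2 and Psme3 -0.05 and 0.01, and Psme4 0.35 (limma, adjusted p = 0.101 for Psme4).

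Knockouts set directly against TAC differed in 1 member. Psme4 (ENSMUSG00000040850), the PA200 cap known from histone turnover and DNA repair, at chr11:30771726-30880361 on the plus strand, was lower in the knockouts, and no member was higher. The called share of 2.38% stands beside 3.28% of all genes, 1.58% higher and 1.70% lower; 3 members reached an unadjusted p under 0.05. Psme4 held 59.6, 66.8, 57.2 and 63.5 FPKM in the knockouts and 97.0, 85.4 and 115 FPKM after TAC, a clean separation. The controls held 86.8, 78.8 and 66.0 FPKM and overlapped both. The log2 fold change was -0.66 (SE 0.13, 95% interval -0.94 to -0.39, limma, adjusted p = 0.0187).

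The Psme4 call was lost in 7 of 19 settings, among them with the filter on low genes removed (adjusted p = 0.0516), when rescaled on the core subunits (0.0767), without knockout replicate 1 (0.0556) or 3 (0.0633) and without TAC replicate 1 (0.0569) or 3 (0.0625), while the log2 fold change stayed between -0.77 and -0.55 over the 19 settings. Summed levels of 5 erythroid genes moved in the same direction: 235, 632, 194 and 130 FPKM in knockout replicates 1 to 4 and 1369, 1676 and 952 FPKM in TAC replicates 1 to 3, with 3 of 5 called lower in knockouts. Within groups the order differed: TAC replicate 3 had the highest Psme4 and the lowest erythroid sum of its group. In the controls, replicate 1 had both the highest Psme4 (86.8 FPKM) and the highest erythroid sum (1198 FPKM). In the knockouts, replicate 2 was highest in both (66.8 and 632 FPKM). The part of erythroid RNA in the Psme4 result was not tested. Knockout and TAC values did not overlap in Psmd9 and Psme2, which were higher in the knockouts, and in Psme4, beside 8.43% higher and 9.64% lower of all genes (18.1% in all). For Psmd9 the log2 fold change was 0.24 (95% interval 0.03 to 0.44, limma, adjusted p = 0.206) and for Psme2 0.28 (adjusted p = 0.129), so neither difference passed. The interval lay within 0.5 in 40 of the 42 genes.

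Single transcripts were fitted too, an analysis added after the data had been seen. For Psmd9 the files list 7 transcripts, of which a pair held most of the level. Psmd9-201 has 2597 bases in 6 exons from 123228190 to 123250131, and Psmd9-204 has 735 bases in 5 exons, beginning at 123234594, the start of the second exon of Psmd9-201. Psmd9-201 stood at 2.24, 2.70 and 2.54 FPKM in controls, 2.84, 2.43, 2.65 and 2.56 FPKM in knockouts and 2.11, 2.70 and 2.65 FPKM after TAC. The groups overlapped, with log2 fold changes of 0.05 and -0.01 (limma over 17685 transcripts, adjusted p = 0.794 and 0.981). Psmd9-204 stood at 1.01, 0.784 and 1.67 FPKM in controls, 3.31, 2.44, 3.60 and 2.99 FPKM in knockouts and 2.98, 3.16 and 2.33 FPKM after TAC. All 7 values lay above the controls, and Psmd9-204 rose by 0.94 (SE 0.17, limma, adjusted p = 0.00585) and 0.84 (limma, adjusted p = 0.0171).

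**Figure D4:**
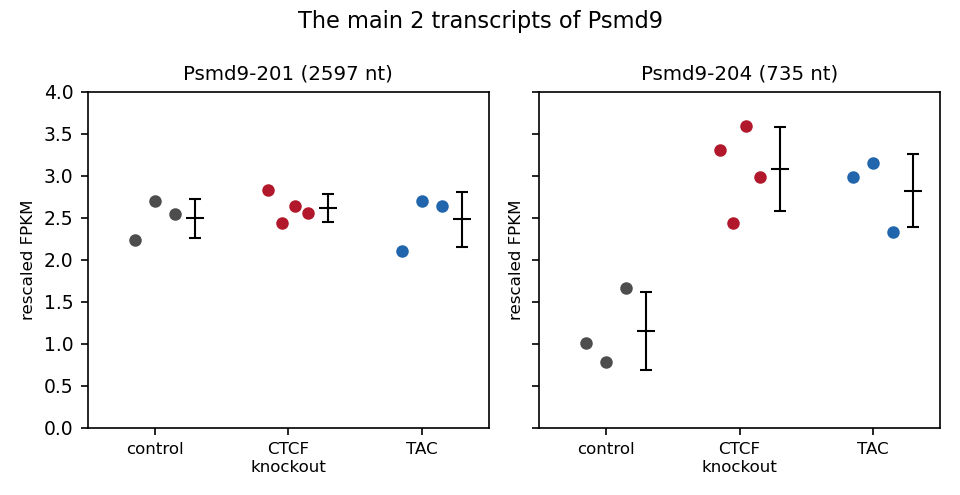
Rescaled FPKM of Psmd9-201 and Psmd9-204 in each library on one scale, with group mean and SD. Psmd9-201 overlaps between the groups at 2.11 to 2.84 FPKM, while Psmd9-204 is at most 1.67 FPKM in controls and at least 2.33 FPKM in the others.

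All 735 bases of Psmd9-204 also lie in exons of Psmd9-201, which has 1862 bases of its own, so the division of reads between them is an estimate. The difference in fold change between the pair was not tested. The share of Psmd9 held by Psmd9-201 was 63.8 ± 10.3% (SD, n = 3) in controls, 39.4 ± 3.7% (SD, n = 4) in knockouts and 45.1 ± 5.1% (SD, n = 3) after TAC. The short Psmd9-205 (334 bases) was at most 0.00049 FPKM in controls, TAC and knockout replicate 1, and stood at 1.36, 0.342 and 0.662 FPKM in knockout replicates 2, 3 and 4. Psmd9-201 and Psmd9-204 overlapped between knockouts and TAC, with log2 fold changes of 0.06 and 0.09, neither called. The separation of knockouts from TAC in the summed Psmd9 level thus rests in part on Psmd9-205. The printed start of Psmd9 is that of Psmd9-201. The annotated genes Hpd, Gm26745 and Gm43409 overlap Psmd9 on the other strand, and whether the authors' quantification used the strand is not given in the sources used here. The same holds for Gm12356 across from Psmd3, Gm12103 across from Psme4 and Sirt3 across from Psmd13, which Gm15542 also overlaps on the same strand.

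Among single transcripts of the members, 78 were tested. In knockouts against controls 5 rose and none fell, beside 14.6% of all transcripts called: Psmd9-204, Psmd3-201, Psmd8-202, Psmd13-201 and Psma1-203. Psma1-203, a minor form with 7.2% of Psma1, rose by 0.79 (limma, adjusted p = 0.0192) while the gene as a whole had -0.08. Psmd13-201 rose by 0.49 (limma, adjusted p = 0.0435), while Psmd13-211, annotated as a target of nonsense-mediated decay and holding 34.8% of Psmd13, had 0.07. The difference between these Psmd13 forms was not tested. After TAC only Psmd9-204 was called of the 78, beside 10.1% of all transcripts, and in knockouts against TAC only Psme4-201 (log2 fold change -0.70, limma, adjusted p = 0.0295), beside 0.956%.

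In most members a single transcript held the level: the most abundant one had at least 50% in 38 of 42 genes and at least 90% in 25, and it was protein-coding in 41. The exceptions below 50% were Psma3, Psmd13, Psmd5 and Psmd9. The most abundant transcript differed between groups in Psmd5, Psmd9 and Psmd13. In Psmd5, a chaperone of the ATPase ring, Psmd5-201 held 53.5 ± 3.7% (SD, n = 3) in controls, 47.7 ± 3.2% (SD, n = 4) in knockouts and 39.9 ± 4.5% (SD, n = 3) after TAC. Neither Psmd5-201 nor Psmd5-202 was called in any comparison.

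The inducible subunits, which the rule leaves out, replace Psmb5, Psmb6 and Psmb7 in the immunoproteasome. Psmb10, which takes the place of Psmb7, stood at 9.74, 13.7 and 11.3 FPKM in controls, 25.5, 26.7, 27.0 and 25.2 FPKM in knockouts and 21.4, 18.9 and 26.7 FPKM after TAC. It did not overlap the controls in either group and rose by 1.12 (limma, adjusted p = 0.000217) and 0.89 (limma, adjusted p = 0.00178). Its share of the sum of Psmb10 and Psmb7 was 11.7 ± 0.768% (SD, n = 3) in controls, 23.0 ± 1.75% (SD, n = 4) in knockouts and 19.9 ± 3.51% (SD, n = 3) after TAC. Psmb8 had 4.88, 6.03 and 4.64% of its pair with Psmb5, and Psmb9 1.20, 1.83 and 1.31% of its pair with Psmb6. Psmb8 rose in knockouts by 0.43 (limma, adjusted p = 0.0409) and had 0.21 after TAC (adjusted p = 0.358). Its call in knockouts was lost in 13 of 18 settings, sex as a covariate among them, with adjusted p up to 0.222. Psmb9 was called in neither, at 0.37 and 0.05 (limma, adjusted p = 0.104 and 0.884).

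**Figure D5:**
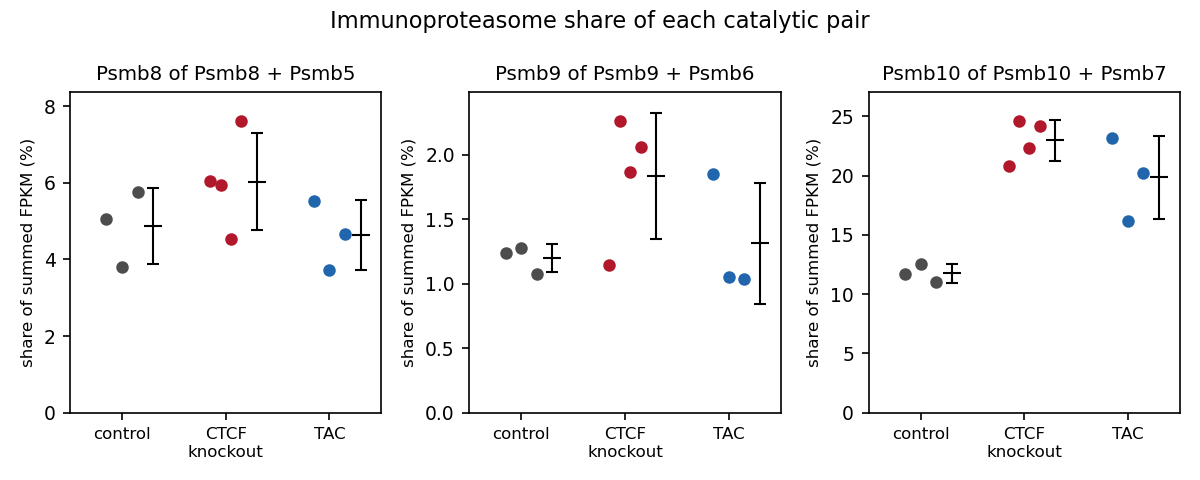
Share of each inducible subunit in the sum with its constitutive partner, in percent of FPKM, by library with group mean and SD. The Psmb10 share is at most 12.5% in controls and lies at 16.2 to 24.6% in the other libraries, while the Psmb8 and Psmb9 shares overlap.

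Immune cells express these subunits strongly. Summed over 8 macrophage and leukocyte markers the level was 61.0 to 84.3 FPKM in controls, 68.8 to 113.7 FPKM in knockouts and 93.9 to 110.7 FPKM after TAC, with 2 of 8 markers called higher in knockouts (Adgre1 and Ctss) and 1 of 8 after TAC (Ctss). The lymphocyte markers summed to at most 0.691 FPKM in any library. In knockout replicates 1 to 4 the macrophage sum was 113.7, 72.7, 68.8 and 113.7 FPKM, beside the Psmb10 levels above. The part of immune cells in the Psmb10 result was not tested.

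Genes that act around the proteasome were counted as well. Of 12 associated proteins, 3 (25.0%) fell and none rose in knockouts. Over all genes 10.2% fell and 10.6% rose, 20.8% in all. The 3 were Zfand5, which activates the proteasome under stress and in muscle wasting, by 0.39, Akirin2, which carries proteasomes into the nucleus, by 0.37, and Ecpas, a proteasome adaptor, by 0.29 (limma, adjusted p = 0.0244, 0.025 and 0.0306). Zfand5 stood at 45.3, 48.9 and 56.7 FPKM in controls, 40.3, 35.5, 39.1 and 36.9 FPKM in knockouts and 32.5, 40.1 and 37.2 FPKM after TAC. It lay below all controls in both groups and was the 1 of 12 (8.33%) that fell after TAC, beside 7.37% of all genes, by 0.45 (limma, adjusted p = 0.023). The 20S maturation factor Pomp had log2 fold changes of 0.08 and 0.17. None of 5 genes of the NRF1 pathway was called in any comparison. NRF1 itself, Nfe2l1, had 0.03 and 0.21, and the related Nfe2l2 had -0.33 in both (limma, adjusted p = 0.087 and 0.127). Of 15 genes for ubiquitin, its activation and its shuttles, 1 (6.67%) rose in each comparison with the controls and none fell, beside 10.6% and 8.08% of all genes that rose: Nploc4, a cofactor of the unfoldase VCP, by 0.30 and 0.38 (limma, adjusted p = 0.0422 and 0.0266).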

How the data were processed

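RNA was sequenced from isolated left ventricular cardiac myocytes of 10 mice (3 control, 4 CTCF knockout, 3 TAC), at about 50000000 read pairs per library on average per the labels' protocols, which name a stranded kit with removal of ribosomal RNA while the labels give polyA RNA. Per the submitters' processing notes the authors used TopHat2 2.1.0, Bowtie2, Cufflinks 2.2.1, Cuffdiff and mm10. The deposited files give an FPKM value per transcript, made by the authors and printed inside a text column; a deposited Cufflinks score was not used. Read counts are not given. A coverage value per transcript is given, but no limit from depth was computed from it.

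FPKM was summed by gene over 109869 transcripts; 22 gene identifiers at 0 in some libraries and above 100 FPKM in others and 7765 with no transcript of 300 bases were set apart. Rescaling factors between libraries were medians of ratios over 11349 genes ( 0.912 to 1.10). Names came from GENCODE M21, promoters from RefSeq. limma 3.58.1 in R 4.3.3 was fitted to log2(FPKM + 1) of all 10 libraries, with a trend of variance with mean, for 11358 genes with mean FPKM of at least 1; tests were two-sided, with Benjamini-Hochberg adjustment over all of them and calls under 0.05. Fold changes on this scale of log2(FPKM + 1) understate the change of low genes. p-values measure the spread between mice. The fit was tested on simulated data with the means and spread of the genes tested, for knockouts against controls. It recovered 30% of log2 changes of 0.5, 88% of changes of 1, 90% of changes of -1 and 98% of changes of 2. Changes of 0.5 were thus mostly missed. In the simulation 7 unchanged genes were called.

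The members, lists and rules for named genes were chosen with earlier results of these data known. Named were called members, catalytic subunits, activators, chaperones, the extremes of each role and called genes of the companion lists. Alternatives were the pseudocount, the filter, the scaling, the replicate number, sex (read from sex-linked genes), the groups in the fit and each library left out.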

Additional observations from a re-analysis of the deposited data

Results flagged for a closer look

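Psmd12, a lid subunit, stood at 32.9 FPKM in knockout replicate 4, while the other 3 knockouts lay between 38.8 and 39.9 FPKM. The gap is 0.843 of the range of the 4 values, past the limit for a sample far from the others. Of 45 genes checked in this group it was the 1 that passed, and chance passes about 1 in 20. The low value is not particular to Psmd12: in this library 28 of the 31 core subunits lay below the mean of their group.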

How the results depend on the processing

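In knockouts against controls, 3 genes rose in the reported fit, 5 without rescaling and 9 with quantile normalization, and 1 to 4 when each library was left out, with 1 without control replicate 1 or knockout replicate 3. After TAC 3 genes rose, and 1 did when only the groups compared were fitted, 1 with rescaling on the 31 core subunits (an alternative chosen after seeing the data) and 0 to 3 without single libraries, with 0 without TAC replicate 2 and 1 without control replicate 3. In knockouts against TAC, Psme4 was the 1 gene lower, and the count was 0 with no filter on the mean, 0 with rescaling on the core subunits and 0 to 1 without single libraries, while quantile normalization called 1 gene higher (Psme2). No member was called lower against the controls under any setting run. Median log2 fold changes of the members ran from -0.01 to 0.24 for knockouts, where the lowest came from rescaling on the members' own core, from 0.01 to 0.22 for TAC and from -0.06 to 0.12 for knockouts against TAC. Without rescaling the median of all genes in knockouts against controls moved to 0.10, and 1661 genes were called higher and 608 lower, against 1203 and 1159. With the replicate number as a block, 3 genes rose in knockouts (Psma7, Psmd3 and Psmd9, while Psmd8 had an adjusted p of 0.0506), 1 after TAC (Psmd11, with 0.0529 for Psmd9 and 0.0540 for Psmd8), and 0 were lower in knockouts against TAC (Psme4 0.0647); same-numbered libraries of different groups had correlations of deviations from -0.36 to 0.33, so the numbers were not taken to pair mice. Read counts are not given, and no limit from depth was computed from the coverage values.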
